A study of Mus musculus with 14 samples.

Results

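Among the binding sites of the transcription factor p53 mapped in doxorubicin-treated mouse embryo fibroblasts (MEFs), 488 had a deposited enrichment under 5, and they are described here as weakly enriched sites. The deposited list had 5873 lines, of which 1088 repeated a site, and 4785 distinct sites were left after repeats were dropped. The weakly enriched sites were 10.2% of them (95% exact binomial interval 9.36 to 11.1%). They were chosen by their enrichment, so the enrichment, the significance score and the rank of these sites are described below and not tested. Their place in the genome, their distance from other sites and the number of lines they take were not used to choose them. The intervals cover counting error only, treat sites as independent although neighbours share their surroundings, and stand in for a test because the study holds 1 list with no replicate.

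p53 is a stress-activated factor that binds DNA as a tetramer, at response elements built from a pair of copies of a short motif. Doxorubicin breaks DNA by trapping topoisomerase II, and the damage stabilises p53, which then raises genes of cell-cycle arrest, apoptosis and p53 turnover. In chromatin immunoprecipitation and sequencing (ChIP-seq), DNA crosslinked to the factor is pulled down with an antibody and sequenced, and the enrichment of a site states how far its signal exceeds a reference. A site occupied in few cells and a site occupied weakly in many cannot be told apart from such a value.

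The list came from primary MEFs of strain 129/Sv that had 0.2 µg/ml doxorubicin for 6 h. Per the labels it is tied to 4 libraries, 1 each of p53 ChIP and of background without antibody from wild-type cells, and the same pair from p53-/- cells, all of them treated. The antibody was CM-5, raised against p53. The labels name 1 library of each kind, so no spread between cultures can be given, and how the background and p53-/- libraries entered the enrichment is not given in the sources used here. The list holds no read counts, so the depth behind each enrichment is unknown. Positions are printed as the list gives them, on mouse build mm9. The gene annotation at hand is on another build, so no site was assigned to a gene and no sequence of a site is printed.

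RNA libraries of treated cells, made from other dishes, gave a check of the labels. In the 3 wild-type and 2 p53-/- libraries, 6 fibroblast markers (Col1a1, Col1a2, Col3a1, Vim, Thy1 and Pdgfrb) stood at percentiles of 85.5 to 99.7 among 20207 listed genes. Epithelial markers (Epcam, Cdh1 and Krt8) stood at percentiles of 15.6 to 44.3 and endothelial markers (Pecam1 and Cdh5) at 14.0 to 41.2. The leukocyte gene Ptprc was at 14.0 to 41.8 on the same scale, but Csf1r, a macrophage receptor gene, was at 73.2 to 86.4. What part other cells had in the binding sites was not tested. Cdkn1a, the p53 target encoding the cell-cycle inhibitor p21, had deposited normalised values of 19.4, 19.7 and 19.2 in treated wild-type libraries 1, 2 and 3. It had 10.4 and 9.98 in treated p53-/- libraries 1 and 2, so the genotypes did not overlap. Trp53, the gene encoding p53, did overlap, with 9.31, 8.95 and 9.99 in wild-type libraries 1, 2 and 3 and 9.31 and 9.96 in p53-/- libraries 1 and 2. Which part of Trp53 the reads cover, and which part is altered in p53-/- cells, was not examined, so Trp53 gave no check of the genotype.

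The weakly enriched sites filled the whole range from the bottom of the list to the limit. Their enrichment ran from 3.00 to 5.00 with a median of 4.11, against a median of 17.4 and a highest value of 769.8 for the 4297 other sites. Site numbers rose across this range, with 103 sites from 3 to under 3.5, 114 from 3.5 to under 4, 131 from 4 to under 4.5 and 140 from 4.5 to under 5. The limit of 5 fell at no break in the list, because 120 sites followed from 5 to under 5.5.

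**Figure D1:**
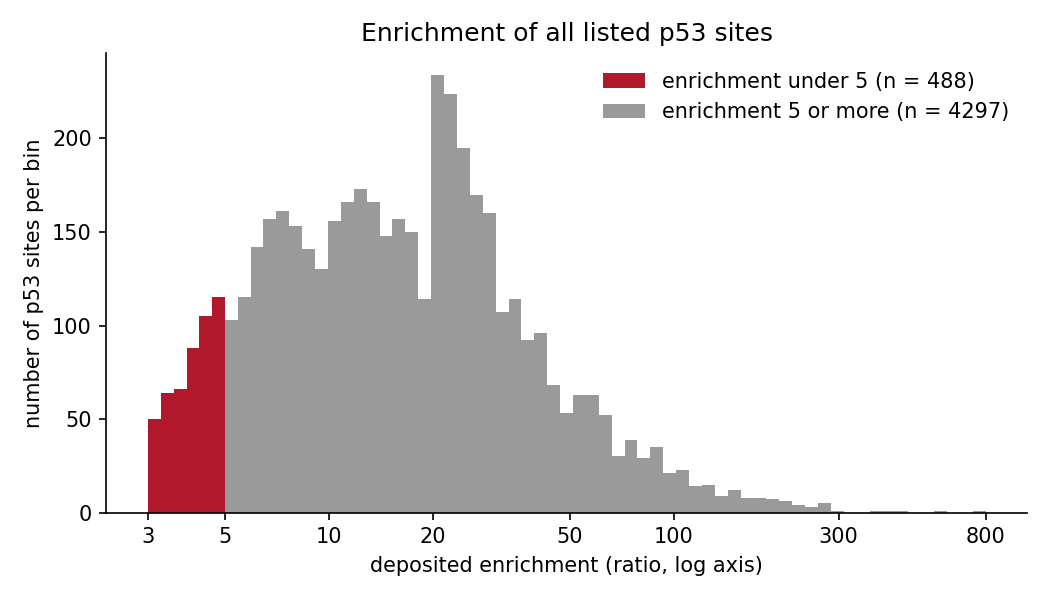
Number of listed p53 sites per bin of deposited enrichment (horizontal log axis), with the 488 weakly enriched sites in red and the 4297 others in grey. The red bins rise toward the limit of 5 and the grey bins go on from them without a gap.

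The sites on both sides of the limit had like values. Just under it stood position 49025144 of chromosome X with an enrichment of 4.99985, position 73000716 of chromosome 8 with 4.99861 and position 41015564 of chromosome 1 with 4.99696. Just above it stood position 40593379 of chromosome 19 with an enrichment of 5.00669, position 139200500 of chromosome 5 with 5.00836 and position 75577955 of chromosome 17 with 5.01115. The ranks of these 6 sites ran from 4220 to 4399, with members and others mixed. Over wider bins the significance score did differ, with a median of 11.1 from 4.5 to under 5 and 18.2 from 5 to under 5.5.

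At the bottom of the list, position 129498070 of chromosome 4 had the lowest enrichment, 3.00154, and rank 4761. Position 27268910 of chromosome 8 followed with an enrichment of 3.00462 and rank 4784. The next were position 87924636 of chromosome 4 with an enrichment of 3.01523, position 121162706 of chromosome 6 with 3.01725 and position 137605426 of chromosome 4 with 3.03533. Each of these 5 took 1 line of the list, and none had another listed site within 10 kb. The nearest was 24.95 kb away, beside position 87924636, and was itself weakly enriched (3.48).

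In the middle of the weak range stood position 32659121 of chromosome 17 with an enrichment of 4.11565, position 4636238 of chromosome 11 with 4.11378 and position 8367605 of chromosome 11 with 4.11231. Their scores were 16.5, 7.75 and 7.39, so sites of nearly equal enrichment differed in score. The site on chromosome 17 had a listed neighbour of enrichment 9.76 at 2.08 kb, while the others stood 90.1 and 210.9 kb from the nearest site.

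By rank, which the authors gave from 1 for the best site, the weakly enriched sites ran from 3605 to 4785 with a median of 4541.5. All of the last 100 ranks were weakly enriched, and 446 of the last 500. No site at or above the limit ranked worse than 4411, and 374 of the 488 ranked below that. None of them was in the better-ranked 2393 sites of the list.

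The deposited significance score separated the weakly enriched sites into a large low group and a small high one. For 444 sites it was under 15, and for 29 it was from 15 to under 60. The remaining 15 had scores from 61.1 to 68.4, and no weakly enriched site had a score between 39.2 and 61.1. Of the sites at or above the limit, 102 had a score inside that gap, so it was empty only among the weakly enriched sites. The header names this column as the -log10 of a q value, but it reaches 248643 in the list, so it is used here only as a score. Across the 488 sites the score followed enrichment (Spearman 0.825), a description of values that share their reads and not a result of a test.

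The 15 sites of high score had enrichment from 4.67 to 5.00 (median 4.82) and ranks from 3605 to 3940. The best of them was position 89377547 of chromosome 3, with an enrichment of 4.97322, a score of 68.4 and rank 3605. Next came position 72305158 and position 135202648 of chromosome 6, with enrichment of 4.93104 and 4.87356 and scores of 68.1 and 68.0. Position 98416128 of chromosome 5 had an enrichment of 4.90299 and rank 3666, and position 63456133 of chromosome 14 had 4.80724 and rank 3681. In this group the score was 12.7 to 14.0 times the enrichment. Of the other 125 sites with enrichment of 4.5 or more, scores ran from 7.43 to 28.4, or 1.63 to 6.19 times the enrichment.

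A step at a score of 60 ran through the list beyond the limit. Between 55 and 60 the list held 10 sites, and between 60 and 65 it held 224. Of the 237 sites with enrichment from 5 to under 6, 42.6% had a score of 60 or more, against 3.07% of the weakly enriched sites. The share with such a score rose with enrichment: 0% from 4 to under 4.5, 10.7% from 4.5 to under 5 and 37.5% from 5 to under 5.5. All 3188 sites with enrichment of 10 or more had such a score. In the plot of score against enrichment the weakly enriched sites lay mostly on the lower band, and the 15 exceptions formed the lower tip of the upper one.

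**Figure D2:**
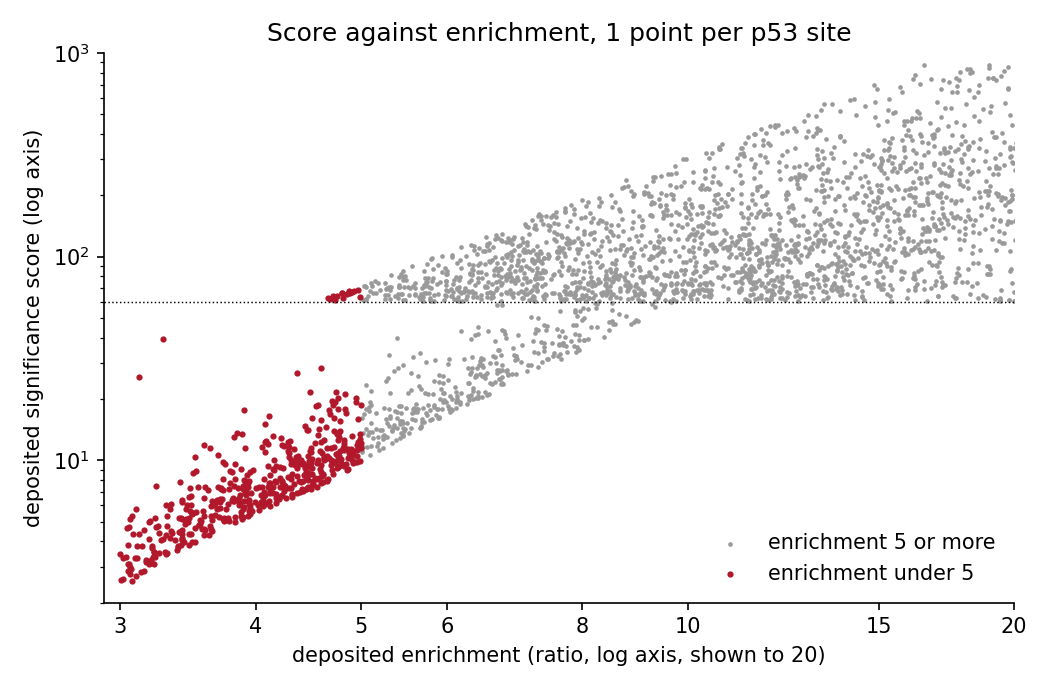
Deposited significance score (vertical log axis) against deposited enrichment (horizontal log axis, shown up to 20), with 1 point per listed p53 site and weakly enriched sites in red. The dotted line marks a score of 60, above which 15 red points lie, at enrichment of 4.67 to 5.00.

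Outside these 15, 4 weakly enriched sites had a score of 25 or more. Position 3089953 of chromosome 11 had a score of 39.2 at an enrichment of only 3.29, and position 18565097 of chromosome 10 had 25.6 at 3.12. In the plot of score against enrichment both stand apart from the band of sites with enrichment near 3. The others were position 36046003 of chromosome 19, with a score of 28.4 at an enrichment of 4.59, and position 102180803 of chromosome 15, with 26.9 at 4.37. These 4 were picked after their values were seen.

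The weakly enriched sites lay on all 20 listed chromosomes. Chromosome 11 held the most, 47 of its 398 sites, and also the most per length, 0.397 per Mb of the span between its first and last listed site. It also held the most sites of any enrichment, at 3.36 per Mb. Chromosome 2 held 42 and chromosome 1 held 41. Chromosome X held 2, at 0.0125 per Mb, and was also low in sites of any enrichment, with 59 in all.

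As a share of the sites on each chromosome, weakly enriched sites ranged from 13.3% on chromosome 3 (32 of 240, interval 9.30 to 18.3%) to 3.39% on chromosome X (2 of 59, interval 0.413 to 11.7%). The interval held the share of the whole list, 10.2%, on 19 of the 20 chromosomes. The exception was chromosome 12, with 14 of 238 sites, or 5.88% (interval 3.25 to 9.67%). With 20 intervals at 95%, an exception of this kind is not a result about that chromosome. On the 18 chromosomes with 10 or more weakly enriched sites, their median enrichment was between 3.75 and 4.49.

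**Figure D3:**
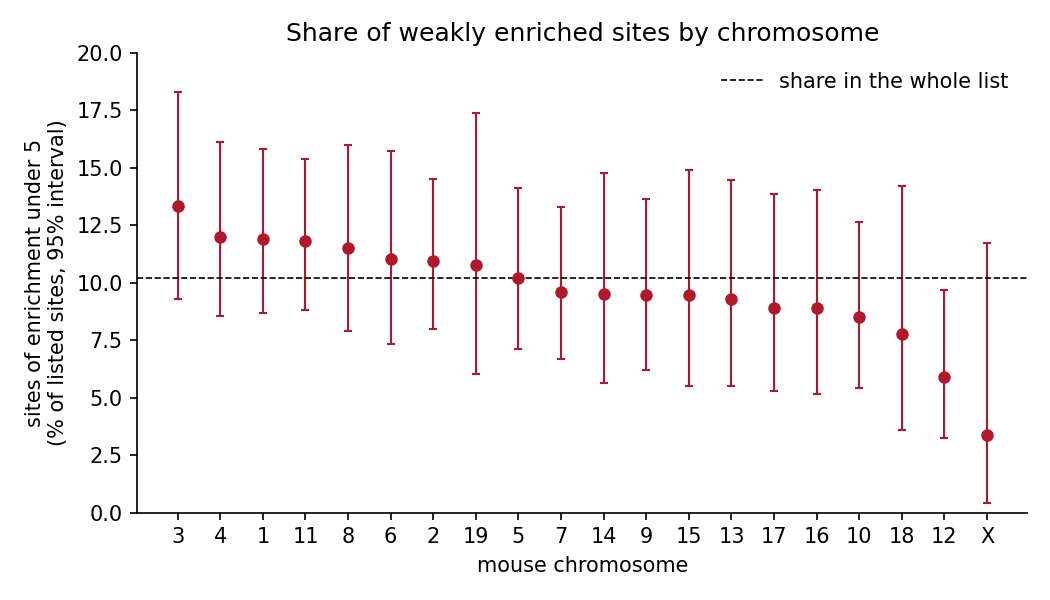
Weakly enriched sites as a percentage of the listed p53 sites on each mouse chromosome, with exact 95% binomial intervals, ordered by share. The dashed line is the share in the whole list (10.2%), which lies inside the interval of each chromosome except chromosome 12.

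Weakly enriched sites had neighbours about as often as other sites did. Another listed site lay within 10 kb of 119 of the 488, or 24.4% (interval 20.6 to 28.4%), against 975 of 4297 other sites, or 22.7% (interval 21.4 to 24.0%). Within 1 kb the shares were 15.6% (interval 12.5 to 19.1%) and 14.2% (interval 13.2 to 15.3%), and within 100 kb they were 56.8% and 55.7%. The median distance to the nearest listed site was 77.4 kb for weakly enriched and 75.5 kb for other sites. At each of these distances the interval of the weakly enriched sites held the share of the others.

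Along the scale of enrichment, sites from 3 to under 4 had a neighbour within 10 kb in 23.5% of cases (interval 18.0 to 29.7%) and those from 4 to under 5 in 25.1% (interval 20.04 to 30.7%). Sites from 10 to under 20 had one in 19.95% (interval 17.8 to 22.3%). The highest share was at an enrichment of 50 and above, 29.2% (interval 25.1 to 33.5%), and its interval overlapped both weak classes.

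**Figure D4:**
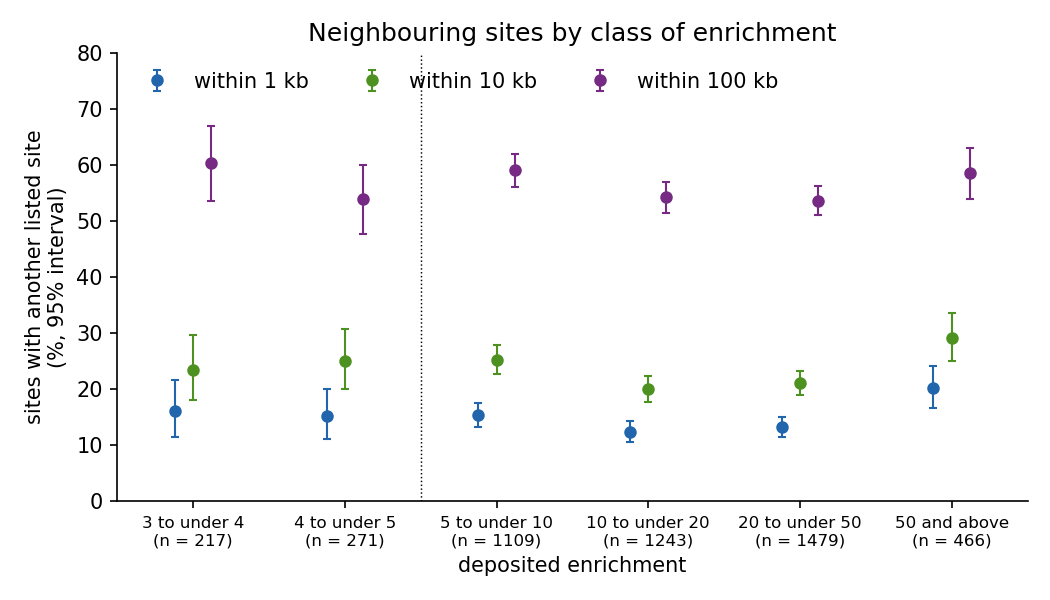
Percentage of listed p53 sites with another listed site within 1, 10 or 100 kb, by class of deposited enrichment, with exact 95% binomial intervals. The classes left of the dotted line are the weakly enriched sites, whose intervals overlap those of every class to the right at each distance.

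Of the 119 weakly enriched sites with a neighbour within 10 kb, 76 had it within 1 kb, at a median of 257.5 bp and no closer than 77 bp. The neighbour was mostly an ordinary site of the list and not another weak one. Within 1 kb it was weakly enriched in 8 of 76 cases, or 10.5% (interval 4.66 to 19.7%), beside 10.2% of the list. These 8 cases were pairs of weakly enriched sites, each pair counted from both sides, so this interval is too narrow. Over the 76 cases the median enrichment of the neighbour was 14.8, and among neighbours of the other sites within 1 kb it was 14.7. The nearest site at any distance had the higher enrichment for 465 of 488, or 95.3%. That follows from the choice of members, since on average 94.9% of listed sites were higher than a weakly enriched one.

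In distance classes that were not planned beforehand, the enrichment of the nearest site varied with its distance. In the 25 cases with a nearest site within 200 bp its enrichment was 3.66 to 37.2 (median 8.81), and 0 of these neighbours reached 50. In the 32 cases from over 200 to 400 bp it was 5.72 to 417.8 (median 27.5), and 10 reached 50. From over 400 to 1000 bp it was 3.64 to 769.8 (median 21.9), and 6 of 19 reached 50. From over 1 to 10 kb it was 3.04 to 73.9 (median 12.7), and 2 of 43 reached 50. In the whole list 466 of 4785 sites reached 50. The nearest sites of the other sites were not divided by distance, so whether this pattern is particular to weakly enriched sites was not tested. Within 10 kb, 8 weakly enriched sites had a nearest site with an enrichment of 100 or more, at 258 to 644 bp, and 2 of the 8 shared the same neighbour. Beyond 10 kb the nearest site reached 121.4.

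The top site of the list had a weak companion. At position 13549008 of chromosome 8 stood the site of rank 1, with an enrichment of 769.8, and 452 bp from it stood position 13549460, with an enrichment of 4.45 and rank 4579. On chromosome 13, position 55974453 had an enrichment of 4.08 and rank 4295 beside a site of enrichment 417.8 and rank 13, 268 bp away. On chromosome 7, position 148628913 had an enrichment of 4.88 and stood 298 bp from a site of 199.1. The last of these companions is also among the 15 sites of high score, at 66.3. Whether such companions are separate sites or edges of a large peak was not tested, because the list gives a position and no width.

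**Figure D5:**
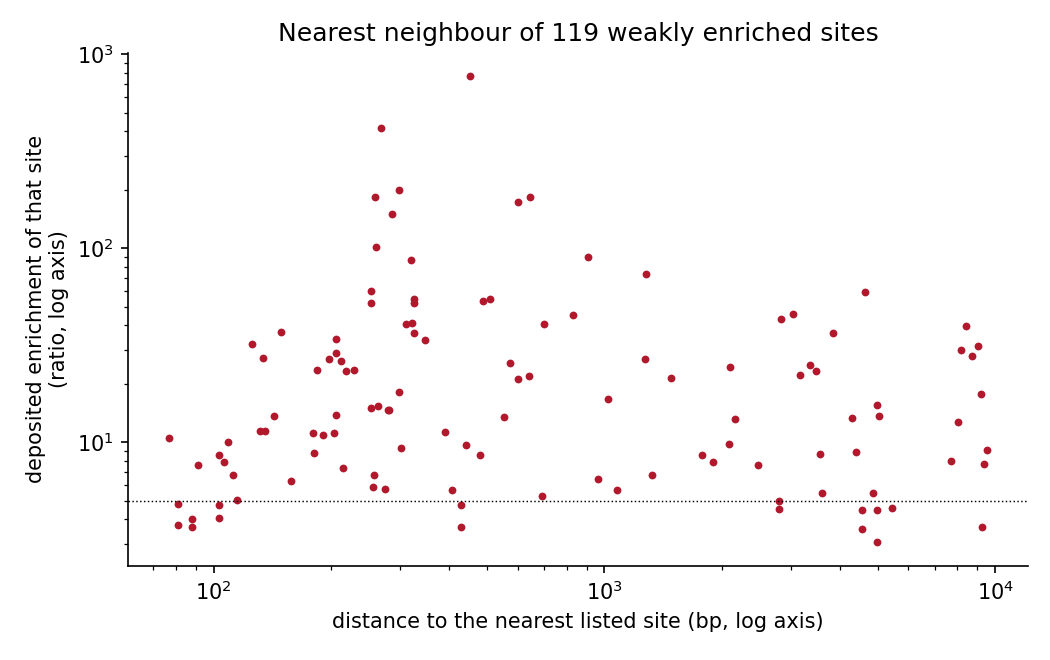
Deposited enrichment of the nearest listed site (vertical log axis) against its distance in bp (horizontal log axis), 1 point for each of the 119 weakly enriched sites with a neighbour within 10 kb. Points under the dotted line have a weakly enriched neighbour, and all points above 100 lie between 258 and 644 bp.

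At 4 places, 2 weakly enriched sites within 1 kb were each other's nearest listed site. On chromosome 4, positions 56048997 and 56049078 lay 81 bp apart with enrichment of 3.75 and 4.78, and positions 106620108 and 106620538 lay 430 bp apart with 3.64 and 4.75. On chromosome 11, positions 5661998 and 5662086 lay 88 bp apart with enrichment of 4.03 and 3.66. On chromosome 8, positions 124893762 and 124893865 lay 103 bp apart with 4.77 and 4.08. These 8 sites are the 8 cases with a weakly enriched neighbour within 1 kb given above.

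Joining sites by steps of at most 10 kb gave 485 stretches of 2 or more sites, and 107 of them (22.1%) held a weakly enriched site. In 95 stretches there was 1 such site and in 12 there were 2. Of these 107, 7 held weakly enriched sites alone and 55 held a site with an enrichment of 20 or more. In the whole list 10.2% of sites were weakly enriched, and 1945 of 4785 had an enrichment of 20 or more. Whether these counts of stretches differ from those of sites mixed at random was not tested. The 369 weakly enriched sites outside the stretches stood alone. The most isolated was position 84777855 of chromosome 2, with an enrichment of 4.13 and 5253 kb to the nearest listed site.

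Of the stretches, 5 held 3 or more sites with 2 of them weakly enriched. On chromosome 8, positions 73000137 and 73000716, with enrichment of 3.16 and 5.00, flanked a site of 52.1 and rank 78 within 579 bp. On chromosome 11, positions 120090715 and 120091617, with enrichment of 4.52 and 3.47, flanked a site of 184.3 and rank 104 within 902 bp. In both the weak sites stood on either side of a strong one.

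The other 3 stretches did not share that order. On chromosome 1, positions 74090448 and 74095899 had enrichment of 4.76 and 4.59 and were followed by a site of 6.33, over 5609 bp. On chromosome 2, positions 13192572 and 13201808 had 3.41 and 3.64 and were followed by a site of 10.9, over 9426 bp. On chromosome 12, the stretch from position 113879091 to position 113889845 held 15 sites in 10754 bp, with a median enrichment of 12.2. Its weakly enriched sites were position 113880898, with an enrichment of 4.63, and position 113889845, with 4.18, the last site of the stretch.

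The stretch of most sites that held a weakly enriched one was on chromosome 11, with 16 sites in 8628 bp from position 69393780 to position 69402408. Its first site was the weak one, with an enrichment of 4.21, and lay 3474 bp before the next site. The other 15 ran from 5.43 to 60.6. The list gives no signal for each library, so whether the runs on chromosomes 11 and 12 are separate binding events, or reflect DNA present in unequal amount in the libraries, was not tested. Leaving this stretch out changed the share of weakly enriched sites with a neighbour within 10 kb from 24.4% to 24.2%.

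The deposited list repeated some sites on several identical lines, with no column to tell the lines apart. This held for 96 of the 488 weakly enriched sites, or 19.7% (interval 16.2 to 23.5%), and for 685 of the 4297 others, or 15.9% (interval 14.9 to 17.1%). The intervals overlap, but the share of the others lay just below the interval of the weakly enriched sites, unlike for neighbours. Among weakly enriched sites from 3 to under 4 it was 16.1% (interval 11.5 to 21.7%) and from 4 to under 5 it was 22.5% (interval 17.7 to 28.0%). By class of enrichment it was 20.2% at 5 to under 10 (interval 17.9 to 22.7%) and 11.8% at 50 and above (interval 9.02 to 15.1%). The interval of the weakly enriched sites overlapped that of the former class and lay above that of the latter.

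Of the weakly enriched sites on several lines, 71 took 2 lines, 17 took 3, 7 took 4 and 1 took 5. That last one was position 107478233 of chromosome 9, with an enrichment of 3.41. Position 20610830 of chromosome 16, with an enrichment of 4.21, and position 5487959 of chromosome 19, with 4.64, were among those with 4 lines. None of these 3 had another listed site within 10 kb.

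Line numbers followed position. Among the 23 weakly enriched sites on several lines with a nearest site within 1 kb, 22 had the same number of lines as that neighbour, or 95.7% (interval 78.1 to 99.9%). Where the nearest site was over 10 kb away, 8 of 60 did, or 13.3% (interval 5.94 to 24.6%). Within 1 kb, some of these sites were each other's nearest site or shared a neighbour, so their matches are not independent and that interval is too narrow. These shares were not computed for the other sites, so whether they are particular to weakly enriched sites was not tested. In the stretch on chromosome 12, the first 3 sites took 2 lines, the next 11 took 3 and the last took 2, and all 16 sites of the stretch on chromosome 11 took 2. The number of lines was thus shared by close sites of very different enrichment.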

How the data were processed

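The deposited list gives a chromosome, a position and 3 values per p53 binding site. The enrichment is a ratio made by the authors, with no denominator stated, per the file headers. The significance column and the rank are scores deposited by the authors, and no test was run on them. Deposited RNA values are used as a score to check labels, with percentiles over all listed genes and ties given their mean. The submitters' processing notes name the build mm9 and DESeq, without a version. Which caller and cutoff made the list, and whether libraries were pooled, is not stated in the sources used here.

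Identical lines were merged, and sites with enrichment under 5 were kept. Distances run between listed positions on a chromosome. Intervals are Clopper-Pearson at 95%, computed with scipy 1.17.1 in Python 3.11.15. The distance script was tested on simulated data against direct search. Alternatives were enrichment limits of 4, 4.5 and 6, distances of 5 and 50 kb, the better-ranked part of the list, all lines kept and chromosomes without X. Distances of 1 and 100 kb, the list without weak sites of score 60 or more and the list without the stretch of most sites were chosen after seeing the data.

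Sites were named by rule: the 5 of best rank, the 5 of lowest enrichment, 3 on each side of the limit, 3 at the median, up to 5 stretches with at least 2 weak sites, and the 3 on most lines. Companions of strong sites, close weak pairs, the 4 sites of score 25 or more, the stretch of most sites and the most isolated site were chosen after their values were seen. Members and rules were chosen with earlier results of these data known. Untreated RNA libraries were not used here.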

Additional observations from a re-analysis of the deposited data

How the results depend on the processing

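Of 26 alternative values, 18 stayed within the interval of the reported share, or within 1.5 times the reported count. Sets at other enrichment limits share many of their sites with the reported set, so these values are not independent checks. The number of weakly enriched sites was 217 at an enrichment limit of 4. The share with another listed site within 10 kb was 42.2% at 50 kb, and 15.6% and 56.8% at the added distances of 1 and 100 kb, which follows from the distance itself. The share on several lines was 16.1% at a limit of 4. The share of the whole list under the limit itself moved with the limit, from 10.2% to 4.54% at 4 and 15.2% at 6. The highest share of a chromosome was 7.44% at a limit of 4 and 19.2% at a limit of 6, and the lowest was 0% at a limit of 4. The highest was on chromosome 4 at limits of 4 and 4.5 and on chromosome 19 at a limit of 6, in place of chromosome 3, and the lowest remained on chromosome X at limits of 4, 4.5 and 6. The better-ranked part of the list held 0 weakly enriched sites and gave no value. The planned motif search was not run, since no genome of the list's build was used here. No paired analysis was possible because the list holds no replicates and no result comes from a test. Read depth and peak width are unknown.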

Other observations

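The enrichment of the whole list had a step far above the weakly enriched range. There were 74 sites from 18 to under 19 and 75 from 19 to under 20, followed by 151 from 20 to under 21 and 105 from 21 to under 22. No such step was seen at the limit of 5, with 271 sites from 4 to under 5 and 237 from 5 to under 6. The lowest score was 60.2 among the 1945 sites with enrichment of 20 or more, the same as among the 3188 sites of 10 or more.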
